A study of Coturnix japonica with 42 samples.

Results

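EYA1, EYA2, EYA3 and EYA4 encode the Eyes absent proteins, and SIX4 encodes one of the sine oculis homeobox proteins that bring them to DNA. The members were all probe sets whose symbol in the platform annotation was exactly one of these 5 names. That gave 4 of 13009 named genes, with 8 of 38439 probe sets once controls were set aside. EYA3 had 3 of them, EYA1 and EYA4 had 2 each and EYA2 had 1, and no probe set carried the symbol SIX4, so SIX4 is not described. Of the 8 probe sets, 7 passed the filter on dim signals that left 32057 probe sets for testing, and the dimmer probe set of EYA4 did not. The probe sets of a gene are numbered from the brightest by mean signal, and the plots give their identifiers.

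The samples were pools of mediobasal hypothalamus from male Japanese quail (Coturnix japonica) that were 8 weeks old. All birds had lived for 4 weeks under short days of 6 h of light and 18 h of dark and were followed through 1 more short day and then 2 long days of 20 h of light and 4 h of dark. There were 21 time points with 6 birds each, and every point had 2 Affymetrix chicken arrays, each hybridised with RNA of 3 pooled birds. The labels name no strain, genotype or drug, and no group was left on short days beside the long days, so day length and the order of sampling cannot be told apart. The labels give times without a unit, and these were taken to be hours counted from the beginning of the short day, with lights on then. The short day then held times 2 to 22 h (12 arrays), the first long day 26 to 46 h (18 arrays, with 36, 40 and 44 h added) and the second long day 50 to 70 h (12 arrays).

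EYA proteins carry no DNA-binding domain of their own. Sine oculis homeobox proteins such as SIX4 recruit them to target genes, where they act as transcriptional coactivators, and their conserved EYA domain is also a protein phosphatase. PAX proteins act upstream in the same network and DACH proteins are further partners, a circuit known for its part in eye, ear, kidney and muscle development. In sheep and mice, EYA3 of the pars tuberalis is known as a coactivator at the promoter of the thyrotropin beta subunit gene, together with TEF, and is induced there by long days.

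Signal is given as linear intensity after each array was scaled to a common trimmed mean. It is read within a probe set and not between probe sets, since chicken probes can bind quail transcripts unequally. Before log2 was taken, signals under a floor of 3.509 were raised to it. A result is said to be called, or to pass, where its adjusted p in limma was under 0.05, with 1 mean fitted per time point over all arrays. Both arrays of a time point correlated at a median of 0.895 over all tested probe sets, with the lowest value, 0.812, at 62 h. There replicate 2 stood apart, with a median correlation of 0.812 with the other arrays, while the remaining 41 arrays lay between 0.879 and 0.905. Before scaling, the trimmed means of the 6 arrays at 38 to 42 h ran from 30.6 to 34.1, inside the range of 25.2 to 40.8 of the other 36. Of 11 measured marker genes of hypothalamic neurons, 10 lay above the array median on all arrays and none on under 50% of them, and their summed signal was 12500 to 17100. In bulk tissue, fewer cells of a type and less RNA per cell cannot be told apart.

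On 1 of its 3 probe sets, EYA3 changed with the hour of the first long day. On that brightest one, probe set 1, both arrays at 34 h read 16.3 and 15.8, and both at 36 h read 28.1 and 25.0. The signal was 58.4 and 65.2 at 38 h, 80.1 and 74.5 at 40 h, and 71.5 and 51.9 at 42 h. It was 26.3 and 38.1 at 44 h and 14.9 and 10.5 at 46 h. The 6 arrays of 38 to 42 h all lay above the other 36 arrays of the experiment, which ran from 6.54 to 40.8, with their highest reading at 66 h. How many of all probe sets had these 6 arrays on top was not counted. On the short day the 12 arrays of this probe set had a lowest signal of 9.47, a median of 14.9 and a highest of 27.0.

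EYA3 probe set 2 had the same hours at the top. Its signal was 13.0 and 14.4 at 34 h and 24.6 and 38.0 at 36 h. At 38 h it was 32.9 and 41.7, at 40 h 44.6 and 46.2, and at 42 h 50.4 and 40.0. At 44 h both arrays had come down to 24.7 and 26.0, and at 46 h they read 17.1 and 13.2. Of the other 36 arrays, 1 array at 36 h reached the lowest reading of 38 to 42 h. The 12 short-day arrays had a lowest signal of 7.39, a median of 13.7 and a highest of 31.5.

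EYA3 probe set 3 showed no such peak. Which quail transcripts it detects was not tested, and each mean over the 3 probe sets given below includes it. It read 8.65 and 11.7 at 38 h, 10.5 and 27.2 at 40 h, and 19.1 and 25.0 at 42 h. These 6 readings lay inside the range of 3.01 to 30.6 of the other 36 arrays, of which 32 reached the lowest of them. The plot of EYA3 signal by time sets the 3 probe sets side by side.

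**Figure D1:**
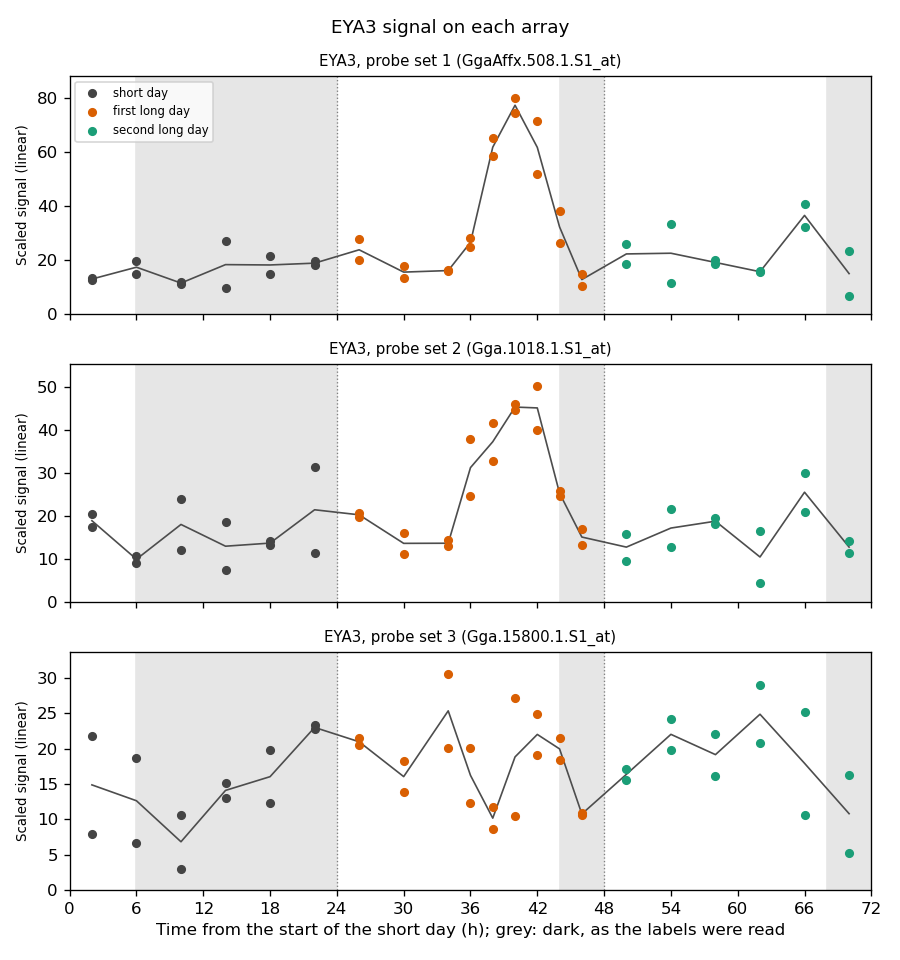
Scaled linear signal of the 3 EYA3 probe sets (vertical axes, each with its own scale) against hours since the short day began. Each point is 1 array of 3 pooled birds, coloured by day, the line joins the means of 2 arrays, and grey marks the dark as the labels were read. The upper probe set peaks at 80.1 at 40 h with all arrays of 38 to 42 h above the rest, the middle one reaches 50.4 at 42 h, and the lower one has no peak at these hours.

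The comparison most direct for this rise set 38 and 40 h of the first long day, hours 14 and 16 of that day, against the short day. These hours were chosen with earlier results of these data known, so its p-values are not those of hours fixed beforehand. The short day was not sampled at hour 16, and the average of its hours 14 and 18 stood in for it. In the fitted difference 14 h thus weighed more than 18 h. The group means given for this comparison weigh the 4 arrays equally. For EYA3 probe set 1, the 4 long-day arrays had a mean of 69.6 ± 9.67 (SD, n = 4) and the short-day arrays of 14 and 18 h read 27.0, 9.47, 14.9 and 21.3, a mean of 18.2 ± 7.64 (SD, n = 4). The groups did not overlap, and the share of all probe sets separated in this way was not counted. EYA3 rose on this probe set by 2.07 on the log2 scale (SE 0.38), which is 4.20-fold with a 95% interval of 2.47 to 7.13 (adjusted p = 0.0216, limma over all tested probe sets). It was 1 of 5 probe sets called among 32057, or 0.0156%, and the single one of the 7 tested members, while 2 members had an unadjusted p under 0.05.

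That call rested on nearly every array compared. It was lost without replicate 2 at 14 h (difference 1.502, adjusted p = 0.83), without replicate 1 at 18 h (adjusted p = 0.0647), without either array of 38 h (adjusted p = 0.0851 and 0.157) and without either array of 40 h (adjusted p = 0.158 and 0.0833), all in limma. It was also lost with the signal as deposited (difference 1.94, adjusted p = 0.141) and when the arrays compared were fitted alone (adjusted p = 0.91). In each of these fits the difference stayed positive, between 1.502 and 2.11.

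EYA3 probe set 2 averaged 41.4 ± 5.92 (SD, n = 4) at 38 and 40 h and 13.4 ± 4.61 (SD, n = 4) at 14 and 18 h. The highest of those short-day arrays read 18.6, below the lowest long-day array at 32.9. As said, the share of all probe sets separated in this way was not counted. The difference on EYA3 probe set 2 was 1.75 on the log2 scale (95% interval 0.92 to 2.58, limma adjusted p = 0.345) and did not pass the test. EYA3 probe set 3 averaged 14.5 ± 8.53 against 15.1 ± 3.37 (SD, n = 4 each), a difference of -0.15 (95% interval -1.09 to 0.80, adjusted p = 1). Its groups overlapped. When the log2 values of the 3 probe sets were averaged into 1 EYA3 value and fitted over 12311 genes, a step added after the data were seen, the difference was 1.23 (limma adjusted p = 0.0669).

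Within the first long day, 38 and 40 h were set against 34 and 36 h, which share the day but not the hour. These hours too were chosen with earlier results of these data known. The 4 earlier arrays of EYA3 probe set 1 averaged 21.3 ± 6.17 and ended at 28.1, below the lowest later array at 58.4. How many of all probe sets were separated at these hours was not counted. The difference was 1.74 on the log2 scale (95% interval 1.02 to 2.46, limma adjusted p = 0.215). No member passed, 2 had an unadjusted p under 0.05, and 0.00624% of all probe sets were called. With a pseudocount of 16 in place of a floor, the same difference was 1.21 with an adjusted p of 0.00268.

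Over hours 10, 14, 18 and 22 as 1 mean, EYA3 probe set 1 averaged 38.1 ± 26.0 (SD, n = 8) on the first long day and 16.7 ± 5.98 (SD, n = 8) on the short day. The long-day arrays of these hours ran from 10.5 to 71.5 and so overlapped with the short-day arrays. The difference of 0.91 (95% interval 0.40 to 1.42) had an adjusted p of 0.400 in limma. In that comparison no member was called, 2 had an unadjusted p under 0.05, and the share called among all probe sets was 0.0561%. The joint test of any of those hours also called no member, with an adjusted p of 0.193 for this probe set, 3 members at an unadjusted p under 0.05 and 0.053% of all probe sets called.

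At hours 2 and 6, before the added light as the labels were read, EYA3 probe set 1 read 19.6 ± 6.05 against 15.1 ± 3.25 (SD, n = 4 each). The difference was 0.35 (95% interval -0.37 to 1.07, limma adjusted p = 0.991). No member passed there, with none at an unadjusted p under 0.05, and 0.00312% of all probe sets were called.

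Single times of the first long day were tested from 34 to 46 h, and 26 and 30 h were not tested singly. EYA3 probe set 1 had its highest difference from the short day at 40 h. There it differed by 2.19 (95% interval 1.31 to 3.08) and ranked 7th by p among the 32057 probe sets tested at that hour. Its adjusted p, taken within that hour, was 0.0617 in limma. At 38 h the difference was 1.95 (0.93 to 2.97) and at 42 h 1.77 (0.75 to 2.79). At 36 h it was 0.97 (0.09 to 1.85), at 44 h 0.79 (-0.09 to 1.67) and at 46 h -0.58 (-1.60 to 0.43). The second probe set had its highest difference at 40 h too, 1.84 (0.88 to 2.80, adjusted p = 0.473).

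No member passed at any of the 7 times from 34 to 46 h in limma, with 9 of 49 member tests at an unadjusted p under 0.05 and 0.0183% of all tests called. The value at 40 h passed in 4 other limma fits of the same probe set. With a pseudocount its adjusted p was 0.0011 and with a stricter filter 0.0472. It was 0.0241 in a fit of all arrays of 34 to 46 h and of 10 to 22 h. That fit was not of the arrays of 40, 14 and 18 h alone. The value also passed without replicate 1 at 14 h, where the difference was 2.57. Averaging the 3 EYA3 probe sets gave 1.41 at 40 h (limma adjusted p = 0.0477). The third probe set alone differed by 0.19 at 40 h (-0.91 to 1.29), and its highest difference, 2.02 (0.76 to 3.29, adjusted p = 0.96), fell at 34 h. The short-day reference there, 10 h, was the lowest time mean of that probe set, with 1 array at 3.01, under the floor.

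**Figure D2:**
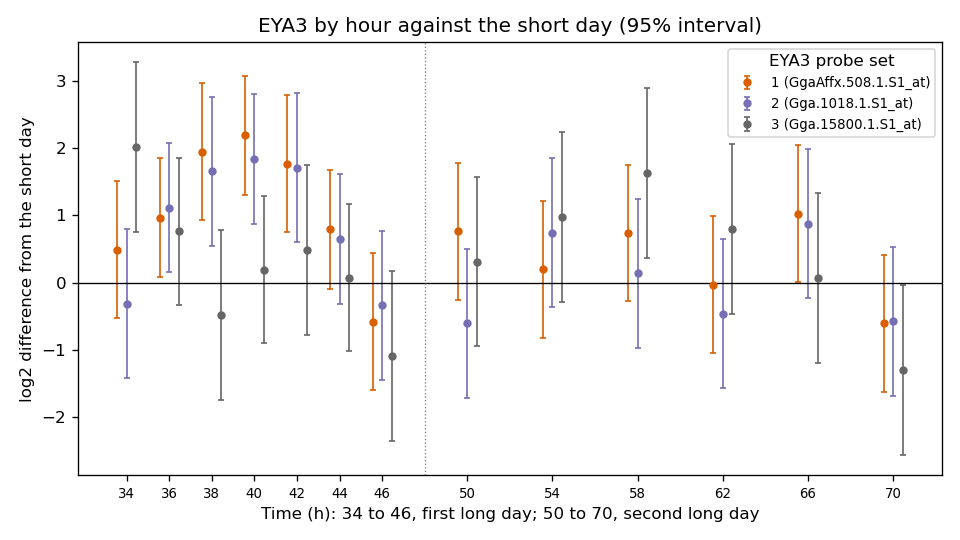
Log2 difference of each EYA3 probe set from the same hour of the short day (vertical axis) at 34 to 46 h of the first long day and 50 to 70 h of the second (horizontal axis, h), with bars for the 95% interval of the limma fit on 2 arrays per time point. Hours 36, 40 and 44 h were set against the average of the short-day hours on either side. The first and second probe sets lie highest at 40 h, at 2.19 and 1.84, while the third is at 0.19 there.

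Across all 21 time points, EYA3 probe set 1 varied more than its replicates (limma F test, adjusted p = 0.0103). It was the single member called among 71 probe sets, 0.221% of those tested, and 2 members had an unadjusted p under 0.05. Without replicate 1 at 40 h its adjusted p was 0.059, and without a variance trend it was 0.0691. The second EYA3 probe set had an adjusted p of 0.263 and passed only without replicate 1 at 62 h. That fit left 62 h with replicate 2 alone, the array that stood apart. The third had 0.877.

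The daily profile of the first long day, a test of any change among its 9 times, likewise called this probe set alone among the members (limma adjusted p = 0.0201). The background was 0.0624% of all probe sets, and 3 members had an unadjusted p under 0.05. Its adjusted p was 0.0565 without replicate 1 at 30 h, 0.054 without replicate 2 at 38 h, and 0.121 and 0.074 without either array of 40 h. It was 0.0635 without replicate 1 at 42 h, 0.0808 without replicate 2 at 46 h and 0.0874 without a variance trend. With the 3 EYA3 probe sets averaged it was 0.114 in limma. The profile of the short day called no member against a background of 0.0624%, with none at an unadjusted p under 0.05, and EYA3 there had an adjusted p of 1 on each probe set. The test that the first long-day profile differed from that of the short day also called no member (adjusted p = 1 for each EYA3 probe set, 3 members at an unadjusted p under 0.05, 0.0125% of all probe sets).

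In the order of mean log2 signal of EYA3 probe set 1, 40 h came first at 6.27, then 38 h at 5.95, 42 h at 5.93, 66 h at 5.18 and 44 h at 4.99. As a guide, the limit for a difference between a pair of time points was set at 1.02. It came from the spread pooled over all arrays in the fit and was not adjusted for the many pairs, so it is not a test of this order. No step between neighbours in this order passed it, the widest being 0.75 between 42 and 66 h. The 40 h mean lay beyond that limit from 66 h downwards, and those of 38 and 42 h from 36 h downwards. On EYA3 probe set 2 the order began with 40, 42, 38, 36, 44 and 66 h, where 40 and 42 h differed beyond its limit of 1.11 from 26 h downwards. On EYA3 probe set 3, 34 h came first and 38 h was 19th of 21.

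On the second long day no array of EYA3 reached the readings of 38 to 42 h on its brightest probe set. EYA3 probe set 1 read 15.5 and 15.8 at 62 h, which is again hour 14 of the day, 32.2 and 40.8 at 66 h, and 6.54 and 23.3 at 70 h. EYA3 probe set 2 read 16.6 and 4.33 at 62 h, the lower on replicate 2, the array that stood apart. It read 20.98 and 30.2 at 66 h, and 11.4 and 14.2 at 70 h. The highest second-day reading of both probe sets was at 66 h. Against 18 h of the short day, 66 h differed by 1.02 on the first of them (95% interval 0.00 to 2.04, limma adjusted p = 0.761).

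Hour 14 of both long days was compared directly, a comparison chosen after the values had been seen. For EYA3 probe set 1, 62 h averaged 15.6 ± 0.25 and 38 h 61.8 ± 4.81 (SD, n = 2 each), a difference of -1.98 (95% interval -3.00 to -0.96, limma adjusted p = 0.151). For EYA3 probe set 2 it was -2.13 (-3.24 to -1.02, limma adjusted p = 0.153), with both days' arrays apart. The share of all probe sets with these arrays apart was not counted. For EYA3 probe set 3 the sign was opposite, 1.29 (0.02 to 2.55, adjusted p = 0.518). No member passed in limma, 3 had an unadjusted p under 0.05, and 0.00624% of all probe sets were called. Since replicate 2 at 62 h stood apart, the values without it were -1.998 (adjusted p = 0.729) and -1.16 (adjusted p = 0.971) for the first and second probe set. Without replicate 1 at 62 h the second passed, at -3.10, and the first had -1.97. That fit left 62 h with replicate 2 alone, so the pass rests on the array that stood apart.

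Before scaling, the trimmed means of the second long-day arrays ran from 25.15 to 35.48 and those of the short-day arrays from 28.78 to 40.75. Most arrays of the second long day were thus scaled up and most of the short day down. Array brightness and day are therefore not fully told apart between these days. Over all 6 hours, the second long day differed from the short day by 0.35 on EYA3 probe set 1 (95% interval -0.07 to 0.76, limma adjusted p = 0.535). The 12 arrays of the second long day had a lowest signal of 6.54, a median of 19.2 and a highest of 40.8, and overlapped with the short day. On EYA3 probe set 2 the difference was 0.02 (-0.44 to 0.47) and turned negative under 4 scalings or covariates, and on EYA3 probe set 3 it was 0.41 (-0.10 to 0.93). No member passed, none had an unadjusted p under 0.05, and 1.37% of all probe sets were called. The second against the first long day at shared hours gave -0.37 (-0.79 to 0.04), -0.52 (-0.98 to -0.07) and 0.06 (-0.45 to 0.58) in the same order of probe sets. That comparison called no member, with 1 at an unadjusted p under 0.05 and 0.0905% of all probe sets called.

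Single hours of the second long day called no member either, with 6 of 42 member tests at an unadjusted p under 0.05 and 0.0328% of all tests called. Its daily profile called none, with none at an unadjusted p under 0.05 against a background of 0.0499%, and EYA3 had adjusted p-values of 0.583, 0.619 and 0.763 in limma. Its difference from the short-day profile called none, with 1 member at an unadjusted p under 0.05 and 0.00312% of all probe sets. Every short-day comparison above drew on the same 12 arrays of that day or a part of them.

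Agreement between probe sets of a gene was measured over the 42 arrays for 5 pairs, with permutation tests of 100000 resamples adjusted over the 5 pairs. The permutations treated all arrays as exchangeable. Their p-values thus make no allowance for arrays that share a time point or lie at neighbouring times. EYA3 probe sets 1 and 2 correlated at a Pearson r of 0.608 (permutation p = 3e-05, adjusted p = 0.00015) and a Spearman rho of 0.507 (permutation p = 0.00076, adjusted p = 0.0038). Without the 2 arrays farthest from the median of the first, r was 0.522. The agreement lay in the first long day, where r was 0.929 over 18 arrays, against -0.458 over 12 arrays of the short day and 0.187 over 12 of the second long day. Whether r differed between the days was not tested.

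Over the 21 time means this pair correlated at 0.841, and after the time means were removed, at -0.316. As a description, EYA3 probe set 2 ranked 1st of 32056 probe sets by correlation of time means with EYA3 probe set 1, while EYA3 probe set 3, at 0.255, ranked 4520th. The third EYA3 probe set did not follow the others over arrays, with r of 0.085 (adjusted p = 0.592) and 0.15 (adjusted p = 0.425) by permutation. The 2 EYA1 probe sets gave -0.178 (adjusted p = 0.425) and the 2 EYA4 probe sets 0.244 (adjusted p = 0.302). The plot of paired readings shows the EYA3 pair.

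**Figure D3:**
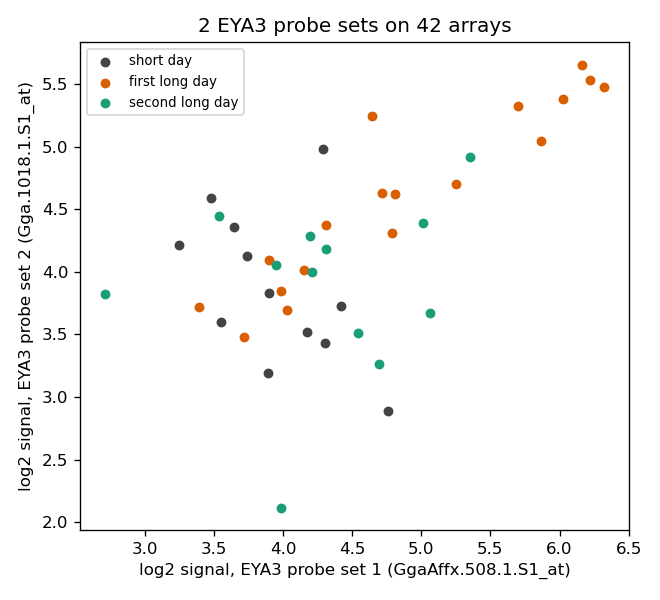
Log2 signal of EYA3 probe set 2 (vertical axis) against that of EYA3 probe set 1 (horizontal axis) on 42 arrays, each point 1 array coloured by day. The first long day forms a rising band (r = 0.929, 18 arrays) and the 12 short-day arrays do not (r = -0.458).

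EYA1 signal lay low on both probe sets, which does not give the level of its transcript, since chicken probes can bind quail transcripts unequally. EYA1 probe set 1 was above the array median on 5 of 42 arrays and probe set 2 on 4. On the first, the short day had a lowest signal of 3.01, a median of 7.70 and a highest of 12.4, and the first long day 0.765, 6.68 and 19.1. At 38 and 40 h its 4 arrays ran from 0.765 to 6.21 and at 14 and 18 h from 6.56 to 11.3, so these did not overlap. As above, the share of all probe sets so separated was not counted. The difference was -0.77 (95% interval -1.73 to 0.19, limma adjusted p = 1). On the other probe set the sign was opposite, 0.45 (-0.67 to 1.58), and the groups overlapped.

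EYA2, with 1 probe set above the array median on 31 of 42 arrays, read 21.2 and 19.1 at 14 h and 16.7 and 19.5 at 18 h. It read 5.17 and 16.8 at 38 h and 10.0 and 10.9 at 40 h. 1 long-day array thus reached just into the short-day range. The difference was -0.99 (95% interval -2.03 to 0.05, limma adjusted p = 1) and did not pass, at hours when the brightest EYA3 probe set rose. EYA2 had its lowest array at 46 h, 0.521, and its highest at 70 h, 30.6. Both arrays of 44 h, 25.0 and 26.1, lay above both of 46 h, and how many of all probe sets did so was not counted.

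EYA4 had low signal as well, with the same limit. Its probe set 1 was above the array median on 8 of 42 arrays, with 16 arrays at the floor, and at 38 and 40 h it differed from the short day by 0.02 (95% interval -1.162 to 1.201, limma adjusted p = 1). The untested probe set 2 was above the median on 1 array, with 33 arrays at the floor. Its median was 3.40 over the short-day arrays, 1.12 over those of the first long day and 1.59 over those of the second, and the arrays ran from 0.569 to 12.9 on the short day, from 0.464 to 5.46 on the first long day and from 0.551 to 9.07 on the second, so the days overlapped. The plot of EYA1, EYA2 and EYA4 by time shows how far both arrays of a time point lay apart.

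Across all comparisons, the 4 tested probe sets of EYA1, EYA2 and EYA4 gave no call in limma. In their 28 tests at single times from 34 to 46 h their differences ran from -1.11 (EYA2) to 0.99 (EYA1), with none at an unadjusted p under 0.05. In the 24 of the second long day they ran from -1.71 (EYA4) to 1.62 (EYA1), with 3 at an unadjusted p under 0.05 and a lowest adjusted p of 0.457. At hours 14 and 16 the median difference of the 7 tested members was 0.02, with 4 above 0, beside a median of 0.00 over all probe sets, of which 49.7% were above 0.

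**Figure D4:**
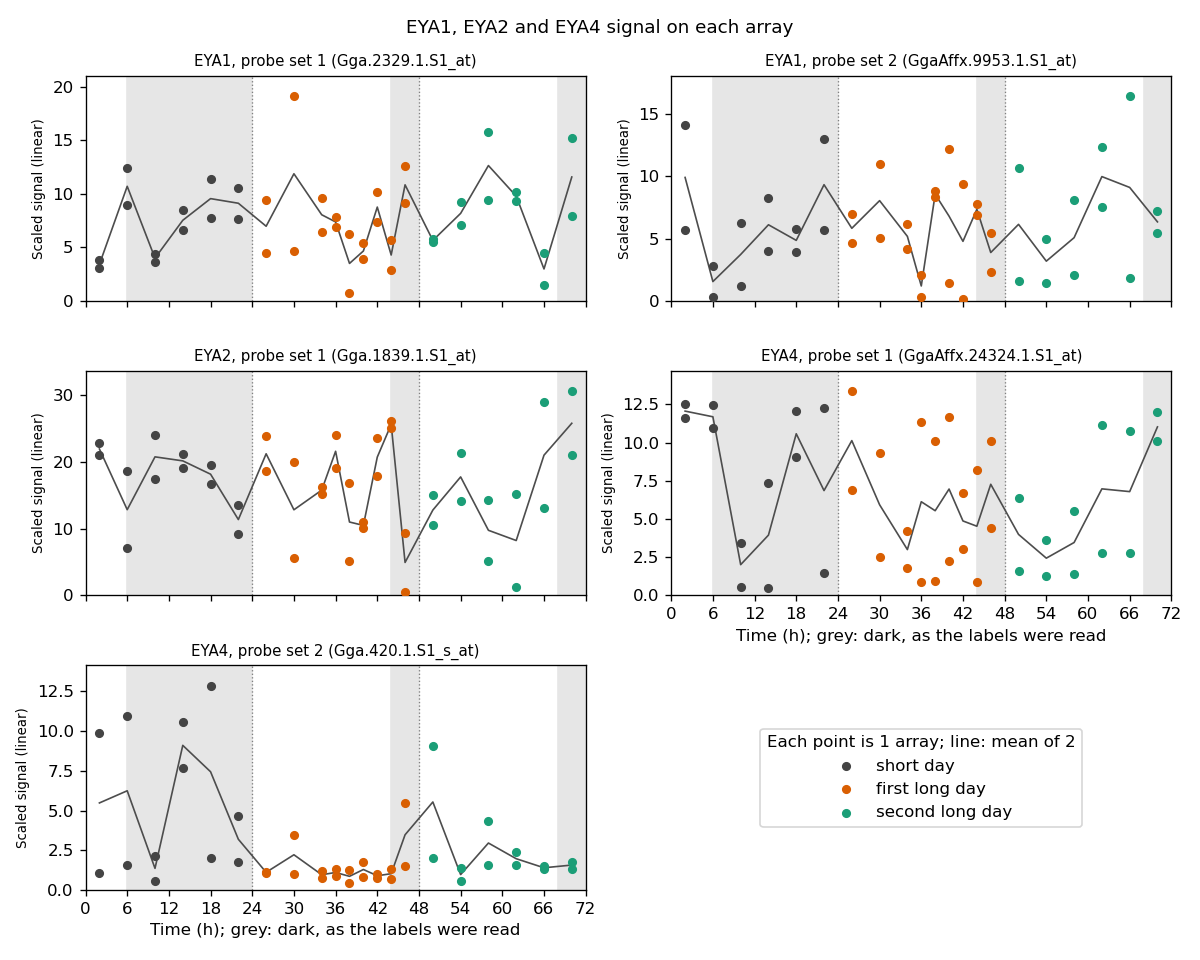
Scaled linear signal of the probe sets of EYA1, EYA2 and EYA4 (vertical axes, each with its own scale) against hours since the short day began, with 1 point per array, lines through the means of 2 arrays and grey for the dark as the labels were read. EYA2 lies above its array median on 31 of 42 arrays, and in none of the panels are the 38 to 42 h arrays the highest.

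The platform annotation has 3 probe sets named SIX5, a close relative of SIX4, and the quail RefSeq table used here holds SIX4 and no SIX5. They were added after the annotation had been read, and which quail gene they detect was not tested. SIX5 probe set 1 lay above the array median on 42 of 42 arrays, from 34.9 to 90.1. It read 37.6 to 64.7 at 38 and 40 h and 53.8 to 77.3 at 14 and 18 h, which overlap, with a difference of -0.31 (SE 0.21, limma adjusted p = 1). The other tested probe set differed by 0.80 (SE 0.72, adjusted p = 1).

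Other genes of this network were taken from a list of 16, of which 12 had probe sets, 21 in all with 16 tested. SIX3, a homeodomain protein of forebrain and eye development, lay above the array median on 42 of 42 arrays (113 to 220), as did PAX6, DACH1 and MCRS1. At 38 and 40 h against the short day 0 of 16 passed in limma, with 1 at an unadjusted p under 0.05, a median difference of 0.03 and 9 above 0, beside 0.0156% called and 49.7% above 0 among all probe sets. PAX7, a factor of muscle and neural progenitors that was above the array median on 3 of 42 arrays, had the lowest p there (adjusted p = 0.783). Its 4 long-day arrays read 0.542 to 0.915, all under the floor, and its short-day arrays 0.535 to 11.1, so the size of that difference is set by the floor and is not given.

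Between the short day and the second long day, 1 of the 16 passed, lower, and 12 had differences above 0, beside 1.37% called and 56.5% above 0 among all probe sets. DACH1, a transcriptional cofactor of the network, fell by 0.30 on the log2 scale on the dimmer of its probe sets (95% interval -0.44 to -0.16, limma adjusted p = 0.0147), from 347 ± 47 to 280 ± 26.6 (SD, n = 12 each). The arrays overlapped, at 288 to 473 on the short day and 233 to 323 on the second long day. As given above, most arrays of the second long day were dimmer before scaling. The other DACH1 probe set differed by -0.15 (-0.28 to -0.02, adjusted p = 0.301). The call on the dimmer probe set was lost with quantile normalization (-0.23, adjusted p = 0.0657), without a variance trend (-0.30, adjusted p = 0.131), with the compared arrays alone (-0.30, adjusted p = 0.0564), with array brightness as a covariate (-0.32, adjusted p = 0.176) and without replicate 2 at 14 h (-0.24, adjusted p = 0.0517), all in limma. With the signal as deposited and with median centring the brighter one passed too, at -0.42 and -0.28. With the processing described below, no other comparison called a gene of this list, and those comparisons are not described singly.

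By likeness of the 21 time means on the log2 scale, the genes nearest to EYA3 (probe set 1) among 12962 bright probe sets with 1 symbol were USP33 at r = 0.735, WSB2 at 0.707, SLC45A4 at 0.69, PTPN2 at 0.658 and BYSL at 0.654. Their time means were highest at 38, 42, 42, 40 and 38 h. USP33 is a deubiquitinase, PTPN2 a tyrosine phosphatase and BYSL a ribosome assembly factor. EYA1 was nearest to UTP11 (r = 0.73), followed by ETNK2 (0.717), VPS50 (0.714), TJAP1 (0.708) and TMEM87B (0.684). EYA2 was nearest to WDR62 (r = 0.81), followed by ABI1 (0.797), SLC26A9 (0.721), DDX42 (0.712) and SLC26A6 (0.707). EYA4 was nearest to HCRT, the orexin precursor gene (r = 0.723), followed by DEFB4A (0.721), CACYBP (0.696), PLA2G2A (0.695) and ASXL1 (0.689). The nearest gene to EYA3 by this measure was thus less like it than its own second probe set, at 0.841. These correlations share arrays and light cycle and are given as descriptions. The EYA1, EYA2 and EYA4 probe sets used for them were not called for any difference among the time points (limma F test, adjusted p = 0.839, 0.792 and 0.94). Their highest r, 0.73, 0.81 and 0.723, nevertheless lay near or above the 0.735 of EYA3.

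Among genes of the thyrotropin promoter and its targets, TSHB, the thyrotropin beta subunit, was most like EYA3, at r = 0.633 over 21 time means (Spearman rho 0.425), and 7th among the bright probe sets. Within days r was 0.775 on the first long day, 0.082 on the short day and 0.06 on the second long day. Each of these values rests on the time means of that day alone. On the short day the TSHB time means ran from 2.52 to 9.54, all below the lowest array median of 10.2. EYA3 was not called for any change on that day either. Dim TSHB signal and a flat EYA3 course thus limit what the short-day r can show. TSHB reached a mean of 68.2 at 38 h and 153 at 40 h, together with EYA3. On the second long day TSHB averaged 106 at 66 h and 87.2 at 70 h, where EYA3 averaged 36.5 and 14.9. On the first long day TSHB was still at 76.3 at 44 h and 31.7 at 46 h, and EYA3 at 32.2 and 12.7.

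TEF, the partner of EYA3 named above, had r of 0.034 with it and was between 38.9 and 63.0 at every time mean. HLF, a related factor, had -0.086, and NFIL3, a repressor at the same kind of site, -0.062. DIO2, the thyroid hormone activating deiodinase, had 0.177 and was highest at 44 h, and DIO3, the inactivating one, had 0.015. CGA, the common alpha subunit, had 0.057. Of the pituitary transcription factors on the list, PITX1 had 0.197, GATA2 0.086 and POU1F1 -0.143. The highest time means of GATA2 and POU1F1 were 12.1 and 12.3, near the array medians of 10.2 to 14.3, so dim signal limits what r can show for them. PITX1 was highest at 62 h, at 37.4 ± 25.4 (SD, n = 2), where 1 array stood apart. The plot of EYA3 beside TSHB, DIO2 and TEF gives their courses.

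**Figure D5:**
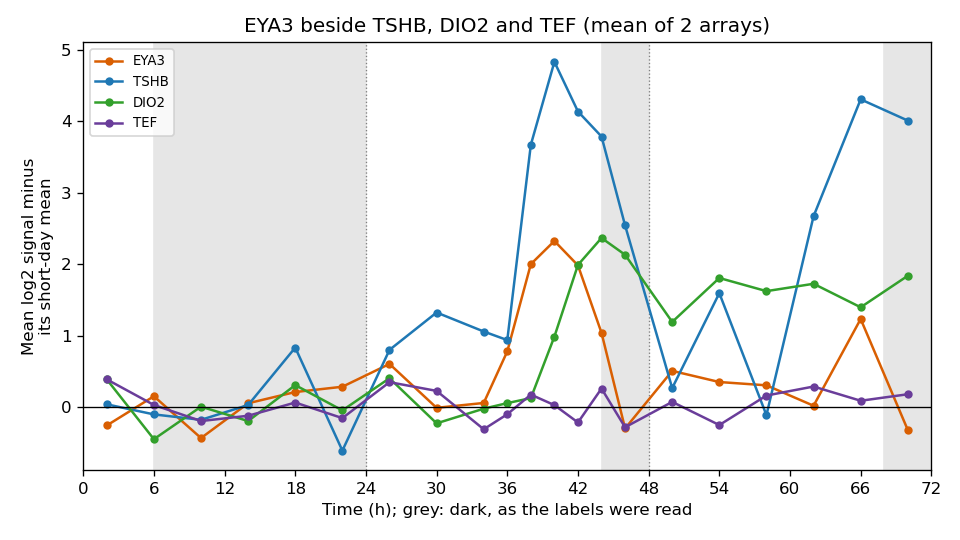
Mean log2 signal of 2 arrays minus the short-day mean (vertical axis) against hours since the short day began for EYA3 (probe set 1), TSHB, DIO2 and TEF, with grey for the dark as the labels were read. EYA3 and TSHB are both highest at 40 h, DIO2 is highest at 44 h, and at 66 h TSHB lies closer to its peak than EYA3 does.

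Markers of other cell types are given beside the EYA3 rise at 38 and 40 h. Of the list for pars tuberalis and anterior pituitary, 2 of 9 tested genes were called there, CGA and TSHB, and its summed signal was 1100 to 1360 against 269 to 704 at 14 and 18 h. Without CGA and TSHB the sum was 106 to 151 against 108 to 133 with none of 7 called, and FSHB, POU1F1 and GHRHR were above the array median on under 50% of the arrays. For choroid plexus the sum was 49.1 to 70.3 against 70.9 to 159, with 0 of 4 called. For skeletal muscle, a tissue known for high EYA expression, it was 44.0 to 76.6 against 53.6 to 69.4, with 0 of 5 called and MYOG and MYOD1 mostly below the array median. The tanycyte and ependymal sum was 2030 to 2610 against 2080 to 2410, with 0 of 5 called. The erythrocyte sum was 4670 to 6690 against 5120 to 6510, and that of retina and pineal 29.4 to 50.5 against 25.1 to 34.6. The part of these cell types in the EYA3 result was not tested.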

How the data were processed

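The deposited values are linear intensities, 1 per probe set and array, which the authors computed in GCOS 1.2 per the submitters' processing notes. For scaling target, detection calls and scan batches: not given in the sources used here. Arrays were Affymetrix chicken genome arrays hybridised with quail cRNA made from 5 µg of total RNA. Each array was multiplied by 1 factor (0.796 to 1.29) to a 2% trimmed mean of 32.42, since the deposited trimmed means ran from 25.15 to 40.75. Signals under 3.509 were raised to that floor and log2 was taken. Of 38535 probe sets, 96 controls were left out, and a probe set was tested where 2 or more arrays showed it brighter than their median. Of 38439 probe sets, 27168 had 1 symbol in the platform annotation, 177 several and 11094 none, and a probe set with several was not named.

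The model, run in R 4.3.3 with limma 3.58.1, held 1 mean for each time point over the 42 arrays, with a variance trend and 21 residual degrees of freedom. Tests were two-sided with Benjamini-Hochberg adjustment over all tested probe sets and a threshold of 0.05. For single hours the adjustment was made within each hour and not across hours. Replicates are pools of 3 birds, so n counts pools, and the 2 arrays per time point limit the precision. Of 210 pairs of time points, same-numbered arrays deviated together with a median correlation of 0.002 (-0.035 to 0.038), so the replicate numbers do not pair the samples.

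The text names all probe sets of the members, and the gene of smallest p in each comparison described for a network list. It also gives the likeness to EYA3 of each gene of a thyrotropin list, and the 5 bright genes most like a member by Pearson r of 21 time means. DBP of the thyrotropin list had no probe set with that symbol. The members and lists were chosen with earlier results of these data known. Alternatives were other scalings, floors, filters and variance models, the compared arrays alone, the replicate number as a block, array brightness as a covariate and leaving out each array.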

Additional observations from a re-analysis of the deposited data

How the results depend on the processing

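In limma, 9 of 16 counts of called members stayed the same under every alternative that was run, and 26 of 478 alternative counts moved. The count for hours 14 and 16, 1 as reported, was 0 with the signal as deposited and with the compared arrays alone, and ran from 0 to 1 when single arrays were left out. It was 1 for any of hours 10 to 22 with a pseudocount (0 as reported; 0 to 1 with arrays left out), and 1 for 38 and 40 h against 34 and 36 h with a pseudocount (0 as reported). For single times from 34 to 46 h it was 1 with a pseudocount, with a stricter filter and with the compared arrays alone (0 as reported; 0 to 1 with arrays left out). For any difference among the time points it was 0 without a variance trend (1 as reported; 0 to 2 with arrays left out), and for the profile of the first long day likewise 0 (1 as reported; 0 to 1 with arrays left out). For 62 against 38 h it ran from 0 to 1 with arrays left out (0 as reported). The cause of these moves was not tested, and fewer arrays in a fit leave fewer degrees of freedom.

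With the replicate number as a block, the EYA3 difference at hours 14 and 16 was 2.07 (limma adjusted p = 0.029), and the adjusted p was 0.0141 over all time points and 0.0281 for the first long-day profile, so the block changed no call. In the permutation tests of agreement, the count of 1 agreeing probe set pair of 5 was the same in all 49 alternatives. Averaging the EYA3 probe sets, added after the data were seen, lost the call at hours 14 and 16 (limma adjusted p = 0.0669). It also lost the first long-day profile (0.114), kept the difference over all time points (0.0183) and gained a call at 40 h (0.0477).

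No value called in either fit changed sign. Values that were not called did so in 13 results, as follows. With the signal as deposited, EYA3 probe set 2 on the second long day was -0.25, EYA1 probe set 1 there -0.019, EYA1 probe set 2 at hours 10 to 22 0.041, and EYA4 probe set 1 -0.08 at hours 14 and 16 and -0.054 for 62 against 38 h. With median centring the same EYA3 value was -0.12, and EYA1 probe set 2 was 0.028 at hours 10 to 22 and -0.019 for 62 against 38 h. With quantile normalization these were -0.09, 0.032 and -0.007. Without a floor, EYA1 probe set 1 was -0.16 and EYA4 0.28 at hours 10 to 22. With array brightness as a covariate, EYA3 probe set 2 was -0.30 on the second long day and EYA3 probe set 3 -0.053 at 40 h.

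With single arrays left out, EYA1 probe set 2 ran from -0.18 to 0.17 at hours 10 to 22, -0.18 to 0.54 for 62 against 38 h and -0.041 to 0.33 on the second long day. EYA2 ran from -1.41 to 0.70 for 62 against 38 h. EYA3 ran from -0.14 to 0.18 on the second long day (probe set 2), and EYA3 probe set 3 from -0.49 to 0.88 at 40 h and -0.49 to 0.20 at hours 14 and 16. EYA4 ran from -0.41 to 0.045 at hours 10 to 22, -0.41 to 0.45 at hours 14 and 16, -0.76 to 0.91 for 62 against 38 h and -0.11 to 0.76 within the first long day. EYA1 and EYA4 lay near the floor, where a signal close to background limits what can be seen.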
